A study of Mus musculus with 5 samples.

Results

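The genes described here move membrane vesicles between the compartments of the cell or acidify the lumen of endosomes and lysosomes. They were taken by gene symbol alone: every gene named Rab, Arf, Sec or Stx followed by a digit, and every gene whose name begins with Vamp, Snx, Vps, Tmed, Trappc, Copb, Copg, Copz, Ap1, Ap2, Ap3 or Atp6. This gave 38 of the 1457 genes in the deposited table, placed by known role in a secretory group (15 genes), an endosomal group (19 genes) and a proton pump group (4 genes). All animals were female C57BL/6 mice aged 8 weeks. The 3 groups were wild-type mice given saline (1 library), wild-type mice given caerulein (2 libraries, replicates 1 and 2) and miR-21-/- mice, called the knockout below, given caerulein (2 libraries, replicates 1 and 3). Caerulein, an analogue of cholecystokinin that overstimulates the pancreas and induces acute pancreatitis, was injected intraperitoneally at 50 µg/kg on a schedule that the labels word as 8-hourly, and the pancreas was taken 24 h after the initial injection. Poly(A) RNA of the whole organ was sequenced. How the knockout was made is not described in the labels, and no knockout mice were given saline. miR-21 itself was not analysed here, so the genotype labels were not checked. Nothing states that each library is a separate mouse, so the spread between libraries may be technical. The p-values rest on that spread largely as the model shares it across genes, and less on the spread of each gene itself.

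Proteins enter the secretory pathway at the endoplasmic reticulum, leave it in COPII-coated vesicles, pass the Golgi, where Arf1 and the COPI coat act, and reach the surface or the endosomes under the direction of Rab GTPases and of the fusion proteins called SNAREs. Material taken up at the surface enters clathrin-coated vesicles through the adaptor AP2, passes early endosomes marked by Rab5, and is recycled by retromer and Rab11 or sorted by the ESCRT and HOPS complexes towards the lysosome. The vacuolar proton pump, with a membrane sector and a soluble sector that burns ATP, acidifies these compartments. In pancreatic acinar cells the secretory pathway carries the digestive zymogens, and early events of pancreatitis are placed in vacuoles where zymogens meet lysosomal enzymes.

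The values are a deposited signal per gene whose unit is not stated, so levels are compared between libraries and not between genes. They are given below in the order saline, wild-type caerulein replicates 1 and 2, and knockout caerulein replicates 1 and 3. Read depth is unknown. The listed genes summed to 2818 in saline and to 23255 to 38628 in the caerulein libraries, and 540 of the 1457 genes stood at the lowest value, 0.01, in saline against 31 to 89 in the caerulein libraries. The table appears to be sorted and chosen by the difference from saline, since 0 rows break a falling order of the wild-type caerulein mean over saline (tolerance 0.001 on the log2 scale) and each gene lay at least 2.53-fold from saline in some caerulein library. A difference from saline is therefore partly what put a gene into the table. Of the 271 protein-coding symbols in RefSeq that meet the naming rule, 38 (14%) were in the table, against 1352 of 21900 protein-coding symbols of all kinds (6.17%). The share was 14.2% for the secretory group, 14.1% for the endosomal group and 15.4% for the proton pump. The 21900 symbols were not limited to genes expressed in the pancreas, so the comparison is not a test of enrichment.

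The vesicle traffic genes in the table were higher after caerulein in both genotypes, by about as much as the table as a whole in the values as deposited. The table appears to be chosen by difference from saline, and 1412 of its 1457 genes had a wild-type caerulein mean above saline. Calls against saline are therefore not independent support for a rise. A limma linear model on log2(value + 1), with Benjamini-Hochberg adjustment over the 1429 genes tested, called 24 of the 38 genes (63.2%) higher in wild-type caerulein than in saline, where 57.3% of all genes tested were called higher. In the knockout 25 of 38 (65.8%) were called higher than saline, where the background was 60.3%. None of the 38 was called lower in either comparison, where 0 of the 1429 genes tested were called lower in wild type and 2 in the knockout. In both comparisons, which share the saline library, 23 of the 38 were called higher, against 767 of the 1429. The median log2 difference of the 38 genes was 2.68 in wild type and 2.79 in the knockout, and that of all genes tested was 2.71 and 2.80. All 38 genes passed the filter on low values, which they met through the caerulein libraries, and 16 of them had a saline value of at least 1.

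By role, 9 of 15 secretory genes (60%) were called higher in wild type and 8 of 15 (53.3%) in the knockout. The calls were 13 of 19 (68.4%) and 15 of 19 (78.9%) for endosomal genes, and 2 of 4 (50%) in each for the proton pump. Of all genes tested, 57.3% and 60.3% were called higher. The estimated difference was above 0 for all 38 genes in both comparisons, and for 1392 and 1396 of the 1429 tested. Median log2 differences in wild type were 2.64, 2.83 and 2.31 for the secretory, endosomal and proton pump groups, and 2.71, 2.93 and 2.18 in the knockout. The call was made for Sec24d in wild type only and for Rab11b and Ap3s1 in the knockout only, and 12 genes were called in neither genotype. All 4 caerulein libraries lay above saline for 31 of the 38 genes (81.6%), where 87.6% of all genes tested did. The 7 exceptions were Sec63, Copz1, Rab2a, Rab18, Vps13c, Vamp7 and Atp6v1b2.

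These counts depend on the libraries and on the scaling. Leaving out wild-type caerulein replicate 2 raised the count of the 38 genes called in both comparisons with saline. Leaving out wild-type caerulein replicate 1 raised the knockout count. The wild-type count of 24 fell to 10 without wild-type caerulein replicate 1, to 10 without knockout replicate 1 and to 12 without knockout replicate 3, and the knockout count of 25 fell to 1, Rab1b, without knockout replicate 1 and to 10 without knockout replicate 3. Of the 8 knockout differences given with statistics below, 7 lost the call without knockout replicate 1 (limma adjusted p from 0.0537 for Tmed2 to 0.154 for Stx18), while their log2 differences were 3.09 (Stx18) to 4.56 (Tmed2) and the median of the 38 genes went from 2.79 to 2.83. Without knockout replicate 3 the calls of Rab3ip and Arf1 were lost (adjusted p = 0.103 and 0.058), at log2 differences of 4.01 and 3.71. When library sums were made equal, 4 of the 38 genes were higher and 1, Rab18, was lower in wild type, 5 were higher in the knockout, and the median log2 difference of all genes went from 2.71 to 0.82 in wild type and from 2.80 to 0.85 in the knockout. That of the 38 genes went further down, from 2.68 to 0.48 in wild type and from 2.79 to 0.49 in the knockout. Quantile normalization brought the median of all genes to 0.07 and that of the 38 genes to 0.01 in wild type, left 20 genes above and 18 below saline in wild type and 19 above and 19 below in the knockout, and left 0 of the 38 called in either. Directions below refer to the values as deposited.

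**Figure D1:**
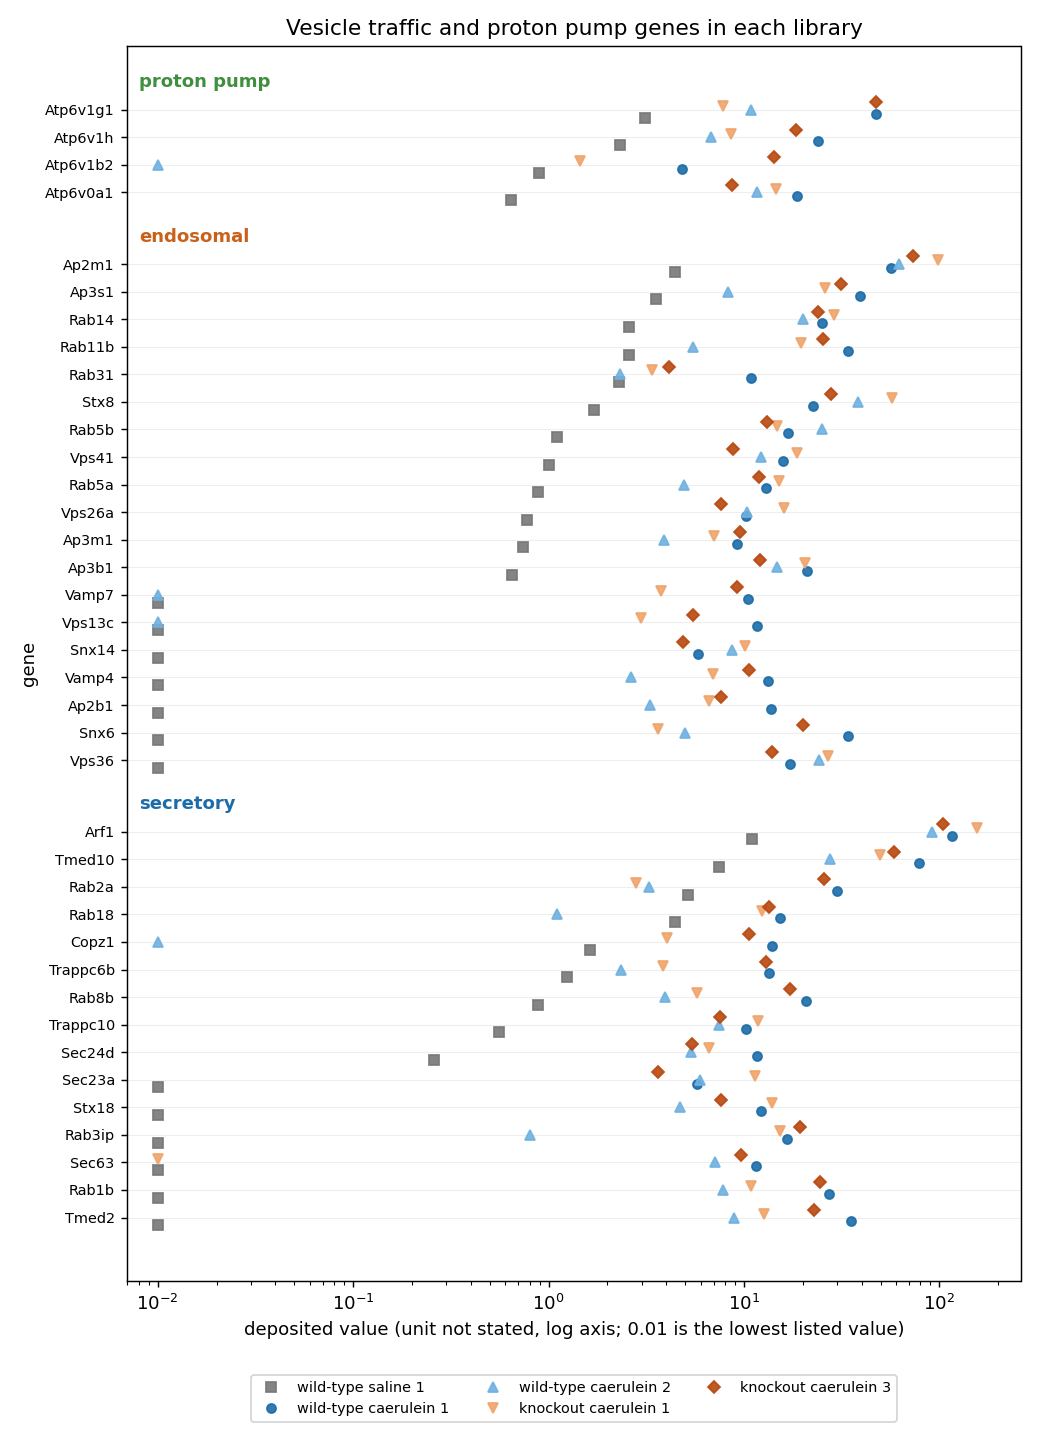
Deposited value (unit not stated, log axis) of each of the 38 genes in the 5 libraries, with the genes grouped as secretory, endosomal and proton pump. Each point is 1 library. The saline points lie lowest for 31 genes, and 13 genes sit at the lowest listed value, 0.01, in saline.

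Among the 15 secretory genes, 6 stood at 0.01 in saline (Tmed2, Rab1b, Sec63, Rab3ip, Stx18 and Sec23a), so no fold change against saline is given for them. Tmed2, a cargo receptor that cycles between the endoplasmic reticulum and the Golgi, was listed at 0.01 in saline, at 35.14 and 8.90 in wild-type caerulein and at 12.73 and 22.83 in the knockout. The 4 caerulein values spread widely but all stood far above saline. Tmed2 was higher by 4.23 on the log2(value + 1) scale in wild type (SE 1.02, limma adjusted p = 0.000615) and by 4.16 in the knockout (SE 1.02, adjusted p = 0.00072). Its partner Tmed10, another cargo receptor of the same family, stood at 7.43, 78.96, 27.51, 49.90 and 58.51 and rose in both genotypes. Rab1b, the GTPase of traffic from the endoplasmic reticulum to the Golgi, was listed at 0.01, 27.33, 7.78, 10.82 and 24.55. Its wild-type pair enclosed its knockout pair, and both pairs lay above saline. Rab1b rose by 3.96 in wild type (SE 1, adjusted p = 0.00106) and by 4.10 in the knockout (SE 1, adjusted p = 0.00072).

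The coats that bud vesicles from the endoplasmic reticulum and the Golgi moved unevenly. Arf1, which recruits the COPI coat to Golgi membranes, stood at 10.99 in saline, at 116.55 and 91.19 in wild-type caerulein and at 156.31 and 104.37 in the knockout. The ratio of the group mean to saline was 9.45 in wild type and 11.9 in the knockout, and the pairs overlapped. Arf1 rose by 3.42 in the knockout (SE 1.18, adjusted p = 0.0111) and was also called higher in wild type. Copz1, a subunit of the COPI coat itself, stood at 1.63, 13.99, 0.01, 4.06 and 10.64, with wild-type replicate 2 below saline, and was not called in either genotype. Of the inner COPII coat, Sec24d, which selects cargo, stood at 0.26, 11.61, 5.35, 6.60 and 5.44 and was called higher in wild type only. Its partner Sec23a was listed at 0.01, 5.72, 5.98, 11.43 and 3.64 and was called in neither, although all caerulein values lay above saline.

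For the factors that tether and fuse vesicles, Stx18, a SNARE of the endoplasmic reticulum that receives vesicles returning from the Golgi, stood at 0.01, 12.20, 4.68, 13.84 and 7.59. It rose by 3.48 in the knockout (SE 1.08, adjusted p = 0.00528) and was also called in wild type. Rab3ip, which activates Rab8 on the way to the plasma membrane, was listed at 0.01, 16.62, 0.80, 15.24 and 19.25. The low value was wild-type replicate 2 alone, and the knockout pair rose by 4.17 (SE 1.07, adjusted p = 0.00113). Rab3ip was also called higher in wild type. Rab8b, a GTPase of that step, stood at 0.88, 20.82, 3.95, 5.72 and 17.27 and was called higher in both genotypes. Of the TRAPP tethering complex, Trappc10 (0.56, 10.20, 7.48, 11.77 and 7.57) was called in both and Trappc6b (1.24, 13.39, 2.34, 3.85 and 12.99) in neither. The remaining secretory genes each had a caerulein library at or below saline. Sec63, which helps proteins enter the endoplasmic reticulum, was listed at 0.01 both in saline and in knockout replicate 1 and at 7.13 to 11.5 in the other caerulein libraries. Rab2a, a GTPase of the Golgi and its precursor compartment, stood at 5.15, 29.95, 3.26, 2.81 and 25.65, and Rab18, found on the endoplasmic reticulum and lipid droplets, at 4.46, 15.34, 1.11, 12.42 and 13.40. None of these last genes was called.

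The letters TGACGTGG, the core of the unfolded protein response element, were searched on both strands in RefSeq promoter windows of GRCm38.p6, which run from 250 bases before to 50 bases after an annotated start. That build is not the mm8 build named for the deposited values. Windows were found for 29 of the 38 genes, 12 of them secretory. The motif was present in 3 of the 12 secretory genes with a window (25%: Sec23a, Sec24d and Arf1), in 0 of 16 endosomal genes and in 0 of 1 proton pump gene. It was present in 16 of 1086 genes of the table with a window (1.47%) and in 193 of 27025 genes in all (0.714%). Sec23a and Sec24d belong to the COPII coat, and Arf1 recruits the COPI coat. The COPI subunit gene Copz1 had a window without the motif. The windows of the 3 genes with the motif are shown, with the motif in capitals: Sec23a (chr12:59011968-59012267, minus strand, motif starting at position 7), Sec24d (chr3:123267246-123267545, plus strand, position -26) and Arf1 (chr11:59228218-59228517, minus strand, position 22), where positions count from the annotated start. The match describes the letters only, which share the run ACGTG with the motif searched below, and 2 of these 3 genes, Sec23a and Sec24d, were not called in both genotypes.
Sec23a: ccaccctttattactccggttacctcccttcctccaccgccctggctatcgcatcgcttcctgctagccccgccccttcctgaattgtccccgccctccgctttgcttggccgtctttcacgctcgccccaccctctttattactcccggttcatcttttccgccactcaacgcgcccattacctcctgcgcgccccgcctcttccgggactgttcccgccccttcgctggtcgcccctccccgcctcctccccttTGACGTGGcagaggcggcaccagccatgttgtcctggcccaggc
Sec24d: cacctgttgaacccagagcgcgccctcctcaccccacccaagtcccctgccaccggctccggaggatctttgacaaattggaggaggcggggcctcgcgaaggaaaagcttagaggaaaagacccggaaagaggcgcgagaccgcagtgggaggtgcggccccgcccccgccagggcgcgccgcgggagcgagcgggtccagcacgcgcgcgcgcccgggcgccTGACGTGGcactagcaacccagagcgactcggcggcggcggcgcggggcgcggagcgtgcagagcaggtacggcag
Arf1: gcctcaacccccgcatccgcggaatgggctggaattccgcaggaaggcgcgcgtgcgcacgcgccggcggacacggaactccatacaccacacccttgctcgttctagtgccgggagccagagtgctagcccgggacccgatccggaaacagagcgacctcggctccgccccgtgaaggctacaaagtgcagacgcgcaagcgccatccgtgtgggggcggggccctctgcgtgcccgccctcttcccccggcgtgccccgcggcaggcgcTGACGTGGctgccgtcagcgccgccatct

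In the endosomal group, 7 of 19 genes stood at 0.01 in saline (Vps36, Snx6, Ap2b1, Vamp4, Snx14, Vps13c and Vamp7). Vps36, a subunit of ESCRT-II, which sorts ubiquitinated cargo at endosomes, was listed at 0.01, 17.22, 24.08, 26.78 and 13.90. Its caerulein values stayed within a narrow band and the genotypes overlapped. Vps36 rose by 4.40 on the log2(value + 1) scale in wild type (SE 1.03, limma adjusted p = 0.000508) and by 4.33 in the knockout (SE 1.03, adjusted p = 0.000563). Snx6, a membrane-bending partner of retromer, stood at 0.01, 33.95, 5.00, 3.62 and 20.02. Wild-type replicate 1 and knockout replicate 3 were high and the other two low. Snx6 rose by 3.84 in wild type (SE 1.02, adjusted p = 0.0017), and without wild-type replicate 1 the difference was 2.57 and the call was lost (adjusted p = 0.0722). Snx6 was also called higher in the knockout. The retromer core subunit Vps26a was steadier, at 0.78, 10.23, 10.37, 15.98 and 7.66, and was called in both genotypes.

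At the cell surface and early endosome, Ap2m1, the subunit of AP2 that binds sorting signals of cargo, stood at 4.42 in saline, at 56.21 and 62.22 in wild-type caerulein and at 97.98 and 73.44 in the knockout. The ratio of the group mean to saline was 13.4 in wild type and 19.4 in the knockout, and the knockout pair lay above the wild-type pair. Ap2m1 rose by 3.47 in wild type (SE 1.14, adjusted p = 0.00926) and by 3.99 in the knockout (SE 1.14, adjusted p = 0.00297). Ap2b1, a large subunit of the same adaptor, was listed at 0.01, 13.74, 3.31, 6.64 and 7.60 and was called in both. Rab5b, a GTPase of early endosome fusion, stood at 1.10, 16.70, 25.22, 14.73 and 13.04, with the wild-type pair above the knockout pair, and rose by 3.36 in wild type (SE 1.04, adjusted p = 0.00599). Rab5b was also called higher in the knockout. Its close relative Rab5a stood at 0.88, 13.03, 4.95, 15.07 and 11.93 and was called in both genotypes. How reads shared by near-identical relatives such as Rab5a and Rab5b were assigned is not given in the sources used here, which leaves the values of the Rab and Arf genes uncertain to that extent.

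Of the genes that act between endosomes, the Golgi and lysosomes, Stx8, a SNARE of late endosome fusion, stood at 1.71, 22.50, 38.25, 57.24 and 27.79. It rose by 3.49 in wild type (SE 1.06, adjusted p = 0.00541) and by 3.92 in the knockout (SE 1.06, adjusted p = 0.00185). Wild-type replicate 2 and knockout replicate 1 were the high libraries here, opposite to Snx6. Vps41, a subunit of the HOPS complex that tethers late endosomes to lysosomes, stood at 1.01, 15.91, 12.15, 18.77 and 8.76 and was called in both. The adaptor AP3, which carries proteins to lysosomes, was represented by 3 subunits. Ap3b1 stood at 0.65, 20.91, 14.72, 20.49 and 12.01 and rose by 3.49 in wild type (SE 1.03, adjusted p = 0.00404) and also in the knockout. Ap3s1 (3.55, 39.13, 8.26, 25.95 and 31.42) was called in the knockout only and Ap3m1 (0.74, 9.22, 3.91, 7.01 and 9.54) in neither.

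Recycling and Golgi-directed Rab genes differed among themselves. Rab14, which acts between early endosomes and the Golgi, stood at 2.59, 24.93, 19.99, 29.04 and 23.82 and was called in both genotypes. Rab11b, of recycling endosomes, stood at 2.58, 34.08, 5.5, 19.53 and 25.26 and was called in the knockout only. Rab31, which acts between the Golgi and endosomes, stood at 2.29, 10.81, 2.31, 3.37 and 4.11 and was called in neither, with wild-type replicate 2 almost at the saline value. The SNARE Vamp4 and the sorting nexin Snx14 were at 0.01 in saline and at 2.64 to 13.25 and 4.87 to 10.08 after caerulein, and both were called in both genotypes. The lysosomal SNARE Vamp7 and the lipid-transfer protein Vps13c were at 0.01 in saline and again in wild-type replicate 2, reached 10.47 and 11.67 in wild-type replicate 1, and were not called.

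The letters TCACGTGA, a palindromic core of the CLEAR element found in promoters of lysosomal genes, were present in the windows of 2 of 16 endosomal genes (12.5%: Rab5a and Vps26a), of 0 of 12 secretory genes and of 0 of 1 proton pump gene. They were present in 30 of 1086 genes of the table (2.76%) and in 304 of 27025 genes in all (1.12%). The windows of those genes, both called higher in both genotypes, are shown with the motif in capitals. The Rab5a window is chr17:53478984-53479283 on the plus strand with the motif at position -96, and the Vps26a window is chr10:62486549-62486848 on the minus strand with the motif at position -152. A second annotated start of Vps26a has another match at position -183.
Rab5a: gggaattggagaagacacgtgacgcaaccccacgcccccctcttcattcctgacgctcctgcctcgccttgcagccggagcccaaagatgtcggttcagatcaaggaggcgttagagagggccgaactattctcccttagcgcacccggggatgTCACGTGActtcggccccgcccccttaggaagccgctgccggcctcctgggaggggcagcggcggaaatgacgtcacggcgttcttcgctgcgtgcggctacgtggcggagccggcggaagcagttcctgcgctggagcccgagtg
Vps26a: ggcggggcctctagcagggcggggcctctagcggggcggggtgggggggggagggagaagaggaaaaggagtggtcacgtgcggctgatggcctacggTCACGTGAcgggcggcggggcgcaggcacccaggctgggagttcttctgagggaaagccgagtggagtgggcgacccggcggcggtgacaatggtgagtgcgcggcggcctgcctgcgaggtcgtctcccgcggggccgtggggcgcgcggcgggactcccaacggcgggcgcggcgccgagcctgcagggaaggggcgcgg

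The proton pump was covered by 4 genes, 1 of its membrane sector and 3 of its soluble sector. None was at 0.01 in saline. Atp6v0a1, the large membrane subunit, stood at 0.64, 18.75, 11.71, 14.63 and 8.71, was called higher in both genotypes, and had a ratio of the mean to saline of 23.8 in wild type and 18.2 in the knockout. Atp6v1g1, a subunit of the stalk, stood at 3.10, 47.57, 10.80, 7.78 and 47.38 and was also called in both. Its wild-type replicate 1 and knockout replicate 3 were nearly equal and lay several-fold above the other two. Atp6v1h, a regulatory subunit, stood at 2.32, 23.79, 6.82, 8.54 and 18.35 and was called in neither genotype. Atp6v1b2, which binds nucleotide in the soluble sector, stood at 0.89, 4.83, 0.01, 1.45 and 14.16, with wild-type replicate 2 below saline, and was called in neither. The 3 soluble-sector genes shared the order of libraries within each genotype, and Atp6v0a1 had the opposite order in the knockout. Under quantile normalization and under equal sums, 3 of the 4 pump genes lay below saline in each genotype.

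The wider pathway, from 6 lists of genes that do not meet the naming rule, held 35 of 190 listed genes, of which 19 (54.3%) were called higher in wild type and 20 (57.1%) in the knockout, at medians of 2.62 and 2.83, where 57.3% and 60.3% of all genes tested were called higher. Lysosomal genes held 10 of 49 listed, with 8 called higher in wild type and 7 in the knockout and medians of 3.82 and 3.61. Among them Npc2, which moves cholesterol out of the lysosome, stood at 1.09, 51.35, 38.77, 80.18 and 29.12, and the lysosomal hydrolase gene Gusb at 1.6, 41.74, 50.52, 66.62 and 25.49. Laptm5 (1.24, 167.2, 207.34, 213.33 and 180.11) and the protease gene Ctss (0.59, 54.18, 25.45, 35.89 and 55.91) are lysosomal genes that are also leukocyte markers, and Map1lc3b, an autophagosome protein, stood at 5.09, 66.16, 19.85, 37.79 and 80.17. All 5 were called in both genotypes. Coats and cargo receptors held 7 of 36 listed, with 5 called higher in each genotype and medians of 3.16 and 3.14. Clathrin heavy chain, Cltc, was listed at 0.01, 52.41, 8.55, 11.79 and 18.18, and the COPI subunit gene Arcn1 at 0.84, 30.09, 7.41, 11.88 and 15.83.

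Entry into the endoplasmic reticulum held 5 of 24 listed, with 0 called higher in wild type and 2, Srpr and Srp9 of the signal recognition system, in the knockout, at medians of 1.82 and 2.07. The chaperone gene Hsp90b1 of that list stood at 12.12, 124.52, 16.19, 47.16 and 61.89 and was called in neither. SNARE partners held 4 of 27 listed, with 2 called in wild type (Vti1a and Gosr2) and 3 in the knockout, where Ykt6 was added. Rab regulators held 5 of 22, with 2 called in each genotype, among them the Rab recycling factor Gdi2 (8.63, 177.25, 280.21, 387.63 and 126.5). Endosome and ESCRT genes held 4 of 32, with 2 called in wild type and 1, the mannose 6-phosphate receptor gene M6pr (0.72, 36.69, 1.19, 10 and 20.04), called in both.

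Markers of several cell types in the organ were also called higher after caerulein, and those of others were not. A difference from saline is partly what put a marker into the table. Of all genes tested, 57.3% were called higher in wild type and 60.3% in the knockout. The 8 macrophage and leukocyte markers in the table (of 17 listed) summed to 3.18 in saline and to 333 to 469 in the caerulein libraries, with 4 of the 8 at 0.01 in saline, and 6 and 7 of them were called higher in wild type and knockout. The 7 stellate and fibroblast markers (of 14 listed) summed to 1.21 in saline, with 4 at 0.01, and to 149 to 833 after caerulein, and all 7 were called higher in both genotypes. Of the 21 acinar markers listed, 4 were in the table, and they summed to 11.3 in saline and to 983, 38.5, 315 and 636 in the caerulein libraries, with 1 of them, Prss1, at 0.01 in saline and in both wild-type caerulein libraries. For 4 other cell types only 1 listed marker was in the table, so each is the value of a single gene. Krt8, of 10 duct markers listed, stood at 7.78 in saline and at 143 to 353 after caerulein. Vwf, of 5 endothelial markers listed, stood at 2.08 and at 10.2 to 27.8, and both genes were called higher in both genotypes. Pcsk2, of 10 islet markers listed, stood at 15.59, 9.7, 9.73, 40.83 and 21.71 and was called in neither. Hbb-b2, of 7 red cell markers listed, stood at 25.6, 23.28, 4.56, 1.37 and 8.9 and was called lower in the knockout. More cells of a type and more RNA per cell cannot be told apart in whole tissue, and the part of these markers in the results was not tested.

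Group medians showed the same step from saline and a difference between caerulein libraries. The secretory median was 0.56, 15.3, 5.35, 11.4 and 13.4, the endosomal median 0.78, 15.9, 8.26, 15.1 and 11.9, and the proton pump median 1.61, 21.3, 8.81, 8.16 and 16.3. Over all 1457 genes the median was 0.62, 12.9, 7.59, 11.1 and 10. Wild-type replicate 2 was the lowest caerulein library for the secretory and endosomal medians, and knockout replicate 1 for the pump. The 38 genes together made up 2.2% of the listed sum in saline and 1.97% to 2.31% of it in the caerulein libraries, so their share of the table stayed within that range.

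**Figure D2:**
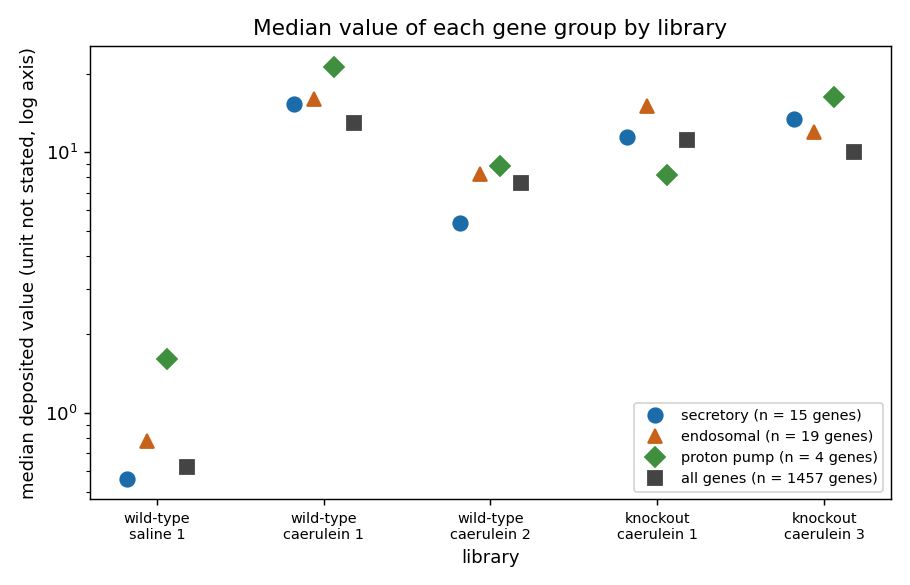
Median deposited value (unit not stated, log axis) of the secretory, endosomal and proton pump genes and of all 1457 genes in each of the 5 libraries. The saline medians lie between 0.56 and 1.61 and the caerulein medians between 5.35 and 21.3, with the secretory median lowest in wild-type replicate 2.

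The spread between caerulein libraries of one genotype had a shape that recurred in the other genotype. Rab2a was 9.19-fold higher in wild-type replicate 1 than in replicate 2 and 9.13-fold higher in knockout replicate 3 than in replicate 1. For Snx6 these ratios were 6.79 and 5.53, and for Atp6v1g1 4.41 and 6.09. Stx8 went the other way, with ratios of 0.588 and 0.486. Wild-type replicate 1 and knockout replicate 3 were both the higher library of their genotype for 22 of the 38 genes (57.9%), against 42.8% of all genes tested, and both the lower for 7 (18.4%), against 22%. Taken singly, wild-type replicate 1 lay above replicate 2 for 81.6% of the 38 genes and 74.4% of all genes tested. Knockout replicate 3 lay above replicate 1 for 57.9% and 46.2%. The joint counts include this general difference between libraries.

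The split differed in count between the groups. Of the secretory genes, 10 of 15 (66.7%) were higher in wild-type replicate 1 and knockout replicate 3, and 1, Sec23a, was lower in both. Of the endosomal genes, 9 of 19 (47.4%) were higher in both and 6 were lower in both, namely Vps36, Snx14, Rab5b, Stx8, Ap2m1 and Vps26a. Of the pump genes, 3 of 4 were higher in both and 0 lower. A change of at least 4-fold in the same direction in both genotypes was seen for 4 of the 38 (10.5%), Rab2a, Snx6, Atp6v1g1 and Atp6v1b2, against 6.86% of all genes tested. The difference between the groups was not tested, since genes of 1 library are not replicates.

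Across the 38 genes, Spearman's rho between the log2 difference of wild-type replicate 1 from 2 and that of knockout replicate 3 from 1 was 0.74 (Pearson's r 0.61), and across all genes tested rho was 0.56. The direction of subtraction was chosen after the values were seen, and the points of such a correlation share the same 4 libraries. Library by library, rho over the 38 genes was 0.86 for wild-type replicate 1 with knockout replicate 3, 0.76 for wild-type replicate 2 with knockout replicate 1, and 0.52 and 0.42 within wild type and within the knockout. Over all genes tested these 4 values were 0.73, 0.74, 0.35 and 0.45. The labels give no batch, date or animal that joins these libraries. The acinar marker sum was also higher in wild-type replicate 1 than in replicate 2 (983 against 38.5) and in knockout replicate 3 than in replicate 1 (636 against 315), with 3 of the 4 acinar markers in that order in wild type and 4 of 4 in the knockout. The stellate sum had that order too (833 against 149, and 387 against 180), but without Col3a1 the knockout sums were 116 and 107, and 4 of the 7 stellate markers were higher in knockout replicate 3. The leukocyte sum had the order in wild type (469 against 333) and the opposite in the knockout (377 against 434). The part of these markers in the pattern was not tested.

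**Figure D3:**
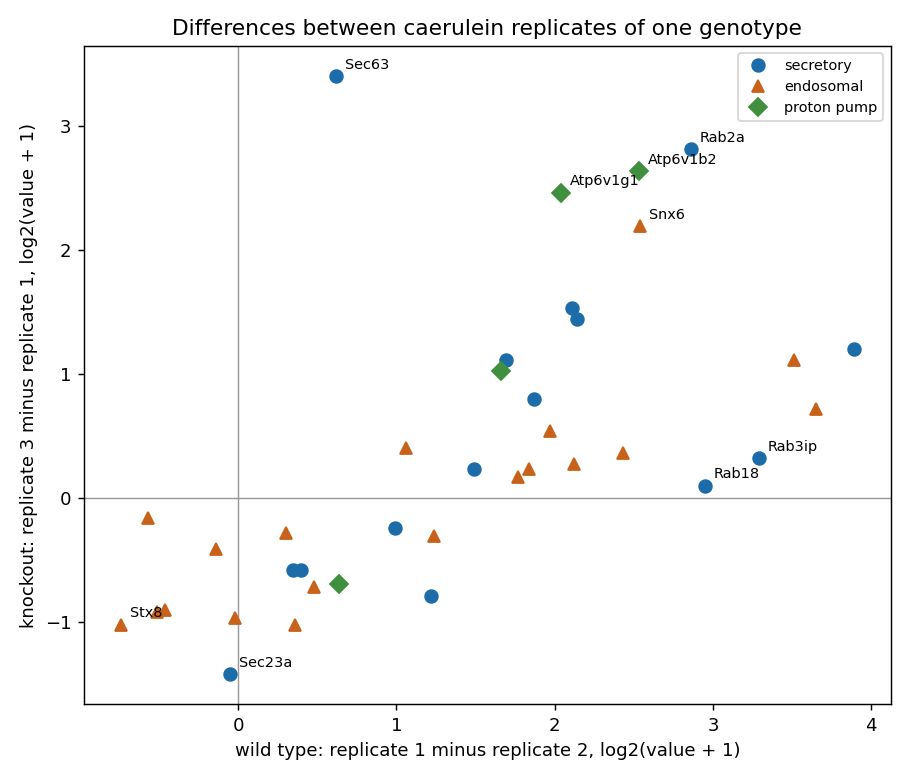
Log2 difference between the caerulein libraries within each genotype for the 38 genes, wild-type replicate 1 minus 2 on the x axis and knockout replicate 3 minus 1 on the y axis, with colour and shape for the group. Most secretory and pump genes lie at the upper right, 22 of the 38 genes in all, and 6 of the 7 genes at the lower left are endosomal.

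Between the genotypes after caerulein, no vesicle traffic gene passed the test. The limma comparison of knockout with wild type called 0 of the 38 genes, where 0% of the 1429 genes tested were called, and at an unadjusted p under 0.05 it gave 0 of the 38 and 7 of all genes. The median log2 difference was 0.15 in the secretory, 0.23 in the endosomal and -0.13 in the proton pump group, 0.14 over the 38 genes and 0.10 over all genes. The 2 libraries of each genotype did not overlap for 2 of the 38 genes (5.26%), Ap2m1 with the knockout above and Rab5b with the knockout below, against 9.31% of all genes tested. The precision was low. The 95% intervals had a median half-width of 1.70 on the log2 scale, they reached from -4.68 to 5.11, and they lay within 4-fold in both directions for 13 of the 38 genes.

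The 8 genes with the smallest p in that comparison had an adjusted p of 0.9997 each. Rab3ip was higher in the knockout by 1.69 (SE 0.87, interval -0.03 to 3.40), with wild-type replicate 2 as the low value, and the difference was 0.04 without that library. Rab18 differed by 1.24 (interval -0.37 to 2.86), Copz1 by 0.98 (interval -1.45 to 3.41) and Atp6v1b2 by 1.33 (interval -2.45 to 5.11). In all of these wild-type replicate 2 was far below the other wild-type library. Without it the differences were -0.23, -0.97 and 0.06. Rab5a differed by 0.66 (interval -0.96 to 2.27), Ap3s1 by 0.62 (interval -1.07 to 2.30) and Rab11b by 0.62 (interval -1.08 to 2.32), and without wild-type replicate 2 these were 0.04, -0.44 and -0.60. Sec63 was lower in the knockout by a log2 difference of -1.62 (SE 1.56, interval -4.68 to 1.43), which rested on knockout replicate 1, where it was listed at 0.01, and was 0.08 without it.

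**Figure D4:**
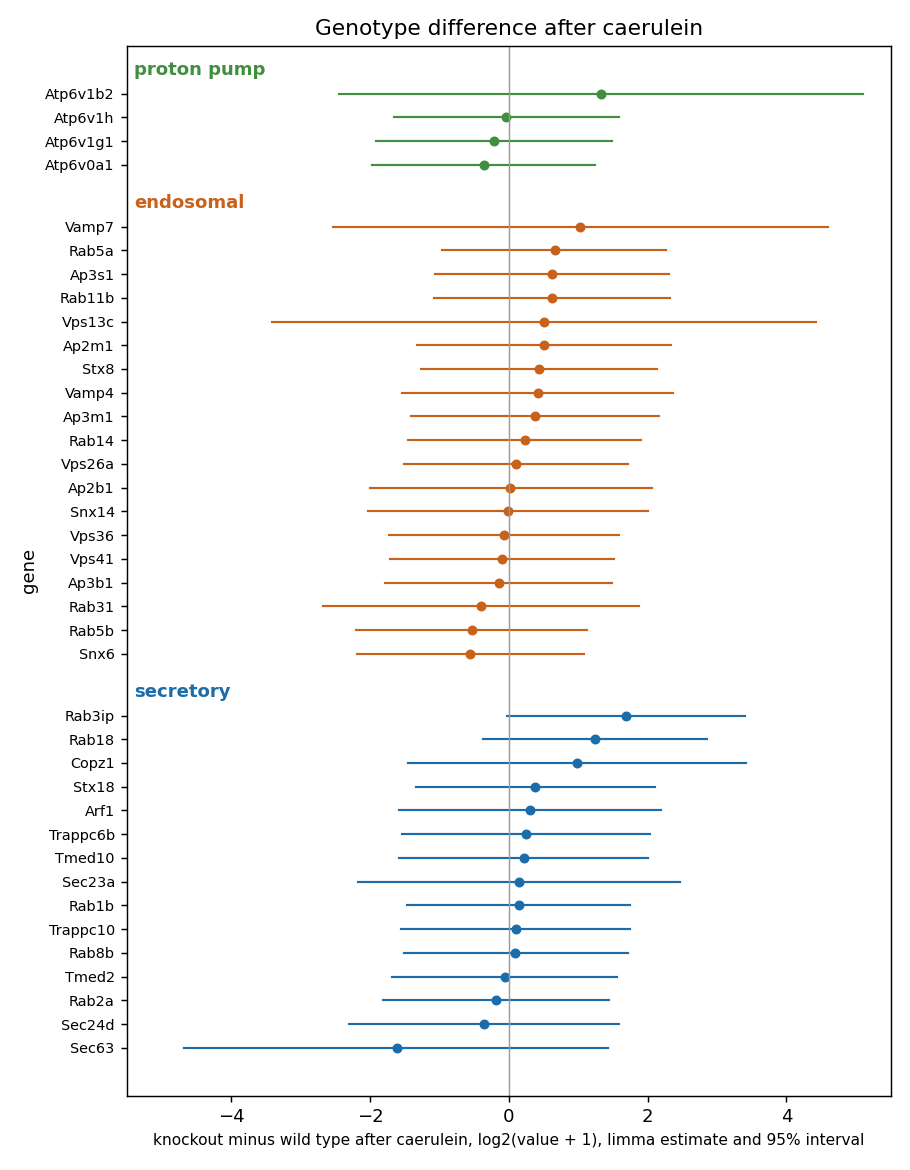
Log2 difference between knockout and wild type after caerulein for the 38 genes, with points for the limma estimate and bars for its 95% interval, ordered within the secretory, endosomal and proton pump groups. Every interval includes 0, and the intervals reach from -4.68 to 5.11.

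The microRNA missing in the knockout, miR-21a-5p, represses messenger RNAs that pair with its seed, bases 2 to 8, shown in capitals in the mature RefSeq sequence (chr11:86584120-86584141 on the minus strand of GRCm38.p6, 22 bases).
mmu-miR-21a-5p: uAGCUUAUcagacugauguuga
The complement of the seed, ATAAGCT, was looked for on the sense strand of the longest 3′ UTR of each gene in GENCODE M21. It was found in 3 of 37 vesicle traffic genes with such a UTR (8.11%), against 108 of 1339 genes of the table (8.07%). The 3 sites are shown with the match in capitals. They lie in Vps36 at base 30 after the stop codon, in Sec63 at base 685 and in Vamp4 at base 279.
Vps36: gctttatgtcaATAAGCTtgcattttgcca
Sec63: gaattaatccgATAAGCTtcagggccaaaa
Vamp4: cccaaaagtttATAAGCTgggaaatttatt
The median log2 difference of knockout from wild type was -0.07 for the genes with the match and 0.14 for those without it, and the same medians over genes of the table with a UTR were 0.01 and 0.10. Vps36 itself differed by -0.07 between the genotypes (SE 0.84, interval -1.73 to 1.58). A seed match is a run of letters and not a measured target site.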

How the data were processed

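Poly(A) RNA of whole pancreas was sequenced, and reads were aligned with Bowtie 0.12.2 to mm8, per the submitters' processing notes. How genes were quantified and normalized is not given in the sources used here. Deposited files hold 1 signal value per gene and library, of unstated unit, and a blank row that was left out. No count of reads could be recovered, so the planned branch for normalized values was used.

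Values were taken as log2(value + 1), which understates the change of low genes. Genes at 1 or more in at least 2 libraries were tested (1429 of 1457) with limma 3.58.1 in R 4.3.3, with 1 mean per group and a trended, robust empirical Bayes variance, and Benjamini-Hochberg adjustment at 0.05 in each of 3 comparisons. The saline library has no replicate and is assumed to vary as the caerulein groups do. Counts, medians and correlations used Python 3.11.15 and scipy 1.17.1. The script was tested on simulated data. Those data lacked the low saline values and the differences in library sums seen here, so they do not test these calls.

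The genes, groups and lists were chosen with earlier results of these data known, and the UTR and promoter searches after the table was seen. In each comparison with saline, full statistics are given for the 8 largest called differences with groups that do not overlap, and between genotypes for the 8 smallest p-values. Other genes of the pathway are named among the 5 with the highest mean in each list. Not every gene that this rule names is reported here. The alternatives tried were quantile normalization, equal library sums leaving out the 20 highest genes, median ratio scaling, no filter or a filter at 5, only genes above 0.01 throughout, a pseudocount of 0.1, no robust estimation, a fit of only the 2 groups at issue, and omission of each caerulein library in turn.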

Additional observations from a re-analysis of the deposited data

How the results depend on the processing

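Calls against saline depended on scaling and on single libraries. Over all genes tested, 819 were called in wild type and 863 in the knockout. Quantile normalization gave 9 and 6 (all lower), equal sums 267 (235 higher, 32 lower) and 241 (219 higher, 22 lower), and only genes above 0.01 in all libraries 488 and 542. The 2 groups alone gave 440 in wild type. Leaving out a caerulein library gave 377 to 1080 in wild type and 29 to 1028 in the knockout. Of the 38 vesicle traffic genes, 24 and 25 were called. Quantile normalization gave 0 and 0, equal sums 5 and 5, genes above 0.01 in all libraries 14 and 16 (of 23 that remained), and the 2 groups alone 11 in wild type. Leaving out a library gave 10 to 32 in wild type and 1 to 29 in the knockout. A cause for these shifts was not tested, apart from the smaller number of genes or libraries that an alternative itself sets. Median ratio scaling, a pseudocount of 0.1, a filter at 5, no filter and no robust estimation kept each of these counts within 1.5 times. Median ratio scaling adjusted only the caerulein libraries to each other and left saline as deposited, so it does not test the offset from saline. Between genotypes 0 of the 38 were called under every alternative run, and 0 to 4 of all genes when a library was left out, with 4 without wild-type replicate 1. On leaving out a library the log2 difference of knockout from wild type ranged from -0.23 to 2.72 for Rab18, -0.97 to 2.93 for Copz1, -0.44 to 1.67 for Ap3s1, -0.60 to 1.84 for Rab11b and -3.32 to 0.08 for Sec63. No paired analysis was possible because the caerulein groups share only 1 replicate number. Read depth is unknown and limits every value near 0.01.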
